A study of Drosophila melanogaster with 30 samples.

Results

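The balance between self-renewal and differentiation of germline stem cells in the *Drosophila* ovary is set by a small group of RNA regulators, and the RNA levels of 7 of them are described here: *bam*, *bgcn*, *mei-P26*, *Rbp9*, *nos*, *pum* and *brat*. They were taken by symbol from the 4 tables of gene counts, and all 7 were found among the 17807 genes. RNA was sequenced from 30 libraries of 9 conditions. Cells from ovaries of *vas*-EGFP flies (w[*]; TI{TI}vas[AID:EGFP], in which the *vas* locus carries the tag) were sorted into *vas*-GFP+ germline cells and *vas*-GFP- somatic cells, with 3 samples each. Ovaries of many flies were pooled for the sort, and the age of the flies is not given in the sources used here. Untreated cultures were fGS/OSS, a wild-type line kept as a mixture of female germline stem cells and ovarian somatic sheet cells, OSCs (a line of ovarian somatic cells) with a deletion of *l(3)mbt*, written Δ*l(3)mbt*, and their wild-type counterpart, with 4 samples each. These 5 conditions were measured as total RNA depleted of ribosomal RNA. Both OSC lines were also nucleofected with *ovo-FLAG*, which encodes the transcription factor Ovo-B under the ubiquitous *act5C* promoter, or with the empty vector, and harvested after 48 h for poly(A) RNA, with 3 samples each. Every culture was female, each genotype was represented by 1 purchased line, and p-values measure the spread between samples, which may be technical because separate cultures are not documented.

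The female germline stem cell divides beside somatic cap cells that send BMP ligands, and BMP signalling keeps *bam* silent in it. In the daughter that leaves the niche *bam* is switched on, and the Bam protein acts with its partner Bgcn, a relative of DExH-box helicases, to start cyst formation. Nos and Pum, an RNA-binding pair that recruits deadenylases and other repressors, hold back differentiation mRNAs in the stem cell, whereas Pum works with the TRIM-NHL protein Brat in the daughter. Mei-P26 is another TRIM-NHL protein that limits cyst divisions, and Rbp9 is an ELAV-family protein needed as cysts mature. In a bulk sample, fewer cells of a type and less RNA per cell cannot be told apart.

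Values are normalized counts, that is, reads per gene divided by the size factor of the library, and each table was scaled apart. Fold changes are differences of log2(normalized count + 1), tested with limma on every gene that averaged 2 or more normalized counts in the libraries of a comparison. A gene passed at an adjusted p (Benjamini-Hochberg over all genes tested) under 0.05. The libraries held 1.63 to 23.1 M counted reads each, among them 3.24 to 6.20 M in *vas*-GFP+ and 8.39 to 13.1 M in *vas*-GFP- cells. The shallowest library was the third of Δ*l(3)mbt* OSCs with the empty vector. Wild-type OSC library 1 stood apart from its group, with 63.1 to 93.9 times the variance between libraries that counting alone gives. Library 4 was at 31.9 and 35.8 times from libraries 2 and 3, which were at 7.23 from each other. The smallest value over all replicate pairs was 1.56, in a pair with the shallowest library. This ratio grows with depth, so values of unequal depth are not directly comparable. *ovo*, the gene on the plasmid, was higher with *ovo-FLAG* than with the empty vector in OSCs (log2 fold change 5.97) and in Δ*l(3)mbt* OSCs (1.33), and these counts can include reads from the plasmid. The count of *l(3)mbt* over all its exons did not separate Δ*l(3)mbt* from wild-type OSCs (5724 ± 215 normalized counts in Δ*l(3)mbt* and 5770 ± 774 in wild-type OSCs, SD, n = 4 each), so it checks nothing about that label. In fGS/OSS *l(3)mbt* was lower than in wild-type OSCs, at 2269 ± 60.7 normalized counts (SD, n = 4, log2 fold change -1.34, adjusted p = 2.2e-07, limma).

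In the BDGP6 assembly (Ensembl annotation), *bam* (FBgn0000158) lies on the minus strand of chromosome 3R from 25243039 to 25245109, and *nos* (FBgn0002962) lies on the plus strand of the same arm from 19157238 to 19160202. The largest of the loci is *pum* (FBgn0003165), on the minus strand of 3R from 9066343 to 9237682. *bgcn* (FBgn0004581) lies on the minus strand of 2R from 23853270 to 23858921, and *mei-P26* (FBgn0026206) on the plus strand of X from 9163255 to 9189309. *brat* (FBgn0010300) and *Rbp9* (FBgn0010263) are both on the plus strand of 2L, from 19133816 to 19179758 and from 2954762 to 2968434. Exons of all annotated transcripts sum to 1.946 kb for *bam*, 2.349 kb for *nos*, 4.159 kb for *bgcn*, 8.054 kb for *Rbp9*, 11.798 kb for *pum*, 12.788 kb for *brat* and 23.228 kb for *mei-P26*. The genes share exon sequence only with genes on the opposite strand, at most 269 bp (*nos* with *CG11779*), and the authors counted reads by strand.

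To set the 9 conditions side by side, reads of each gene were also expressed per M counted reads (RPM), a scale that ignores the size factors and sets total RNA beside poly(A) libraries. On this scale the range from the lowest to the highest condition was 264-fold for *bam*, 73.5-fold for *bgcn*, 59.8-fold for *Rbp9*, 4.65-fold for *mei-P26*, 2.82-fold for *pum* and 1.99-fold for *brat*. *nos* spanned the widest range of the 7, from 308 RPM in sorted germ cells to 0.0394 RPM in wild-type OSCs, where the mean rests on 3 reads. *pum* and *brat*, which act in many tissues, were present throughout, with a lowest mean of 242 RPM for *brat* and 256 RPM for *pum*. Sorted germ cells had the highest mean RPM for *nos*, *mei-P26*, *pum* and *Rbp9*, fGS/OSS had it for *bam*, Δ*l(3)mbt* OSCs with *ovo-FLAG* for *bgcn*, and untreated Δ*l(3)mbt* OSCs for *brat*. For *brat* these libraries overlapped those of fGS/OSS. The Δ*l(3)mbt* line was at 481 RPM of *brat* untreated (total RNA) and 312 RPM with the empty vector (poly(A) RNA), so its order of conditions mixes in the library type.

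**Figure D1:**
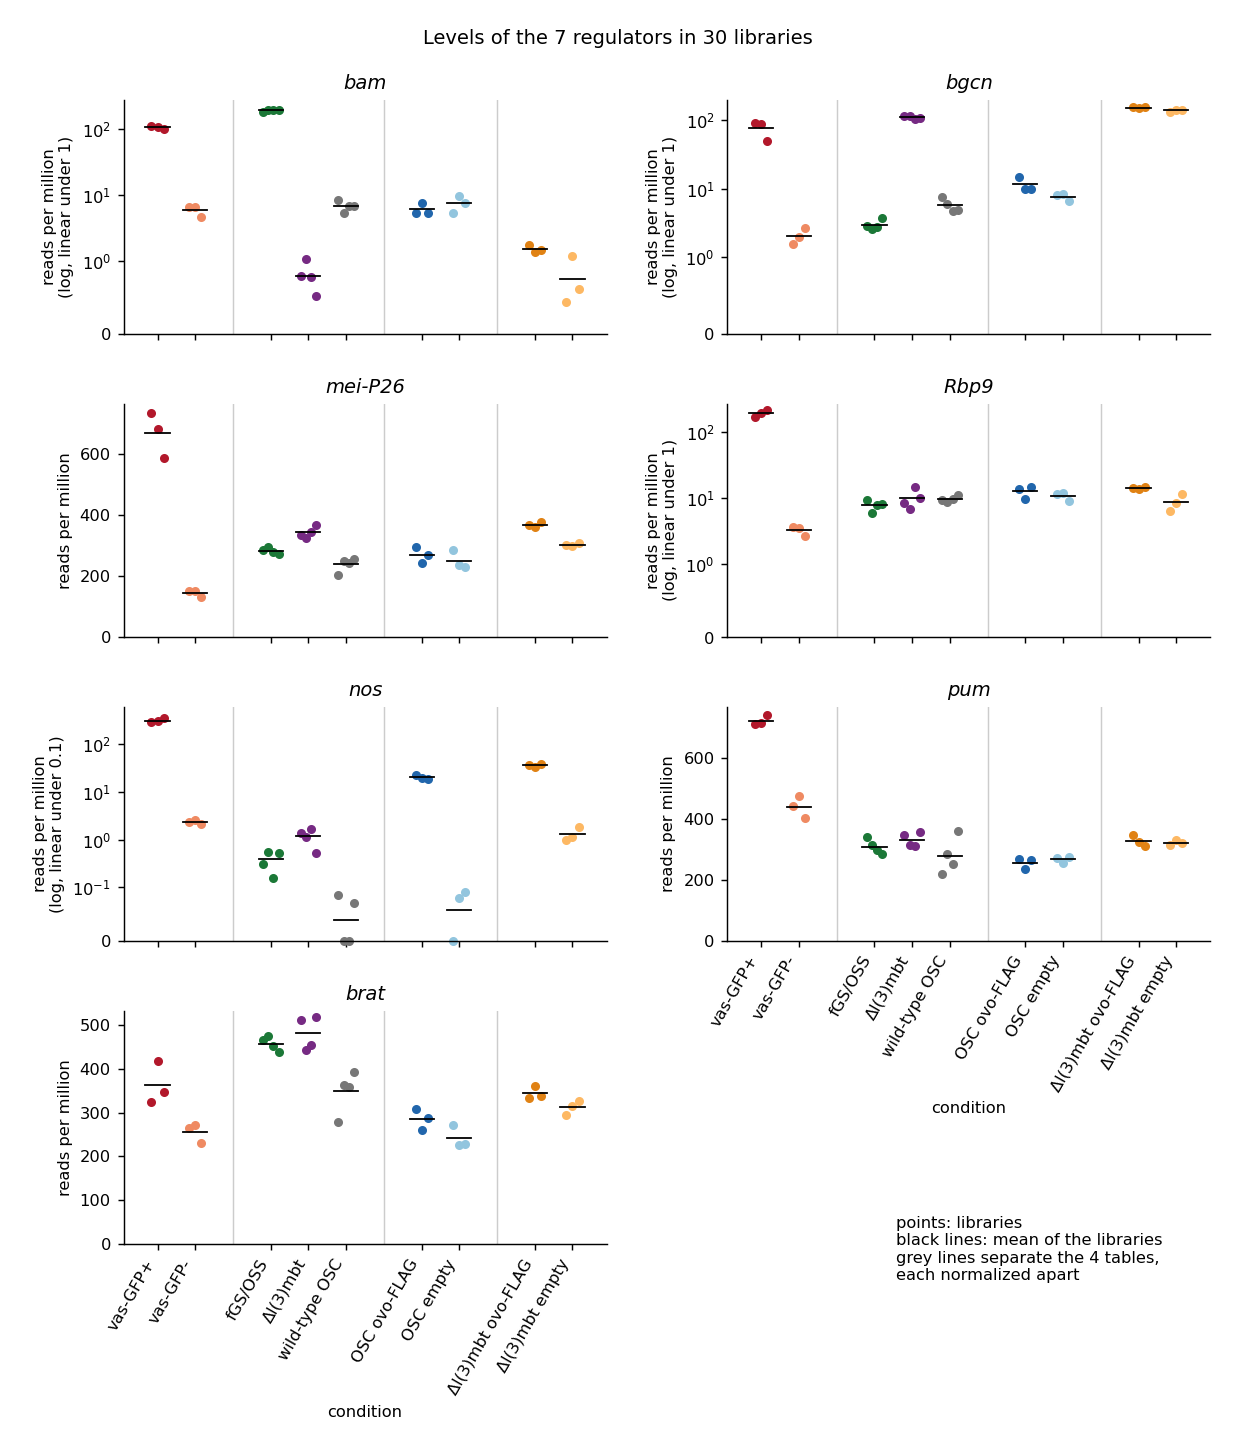
Reads per M counted reads (RPM, y axis; logarithmic for *bam*, *bgcn*, *Rbp9* and *nos*, with a linear stretch at the bottom) of each gene in 9 conditions (x axis), 1 point per library and a black line at the mean. *bam* stands at 196 in fGS/OSS and 107 in *vas*-GFP+ cells and at 7.49 or less elsewhere, whereas *bgcn* stands at 75.2 to 150.3 in *vas*-GFP+ cells and in the 3 Δ*l(3)mbt* conditions and at 11.5 or less elsewhere.

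The order of conditions was not the same for *bam* and *bgcn*, although their proteins act together. For *bam*, fGS/OSS (196 ± 5.94 RPM, SD, n = 4) lay above *vas*-GFP+ cells (107 ± 4.85, n = 3) with no overlap between libraries. Below them came OSCs with the empty vector, wild-type OSCs, OSCs with *ovo-FLAG* and *vas*-GFP- cells, from 7.49 to 5.88 RPM, and each of these overlapped the next in the order. The 3 Δ*l(3)mbt* conditions were lowest, with 1.53 RPM with *ovo-FLAG*, 0.784 RPM untreated and 0.742 RPM with the empty vector. For *bgcn* the same 3 Δ*l(3)mbt* conditions were the highest, at 150.3, 109 and 137 RPM in the same sequence, and none overlapped its neighbour. *vas*-GFP+ cells followed at 75.2 ± 22.4 RPM (SD, n = 3), and fGS/OSS, at 2.97 RPM, overlapped the lowest condition, *vas*-GFP- cells at 2.04 RPM.

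**Figure D2:**
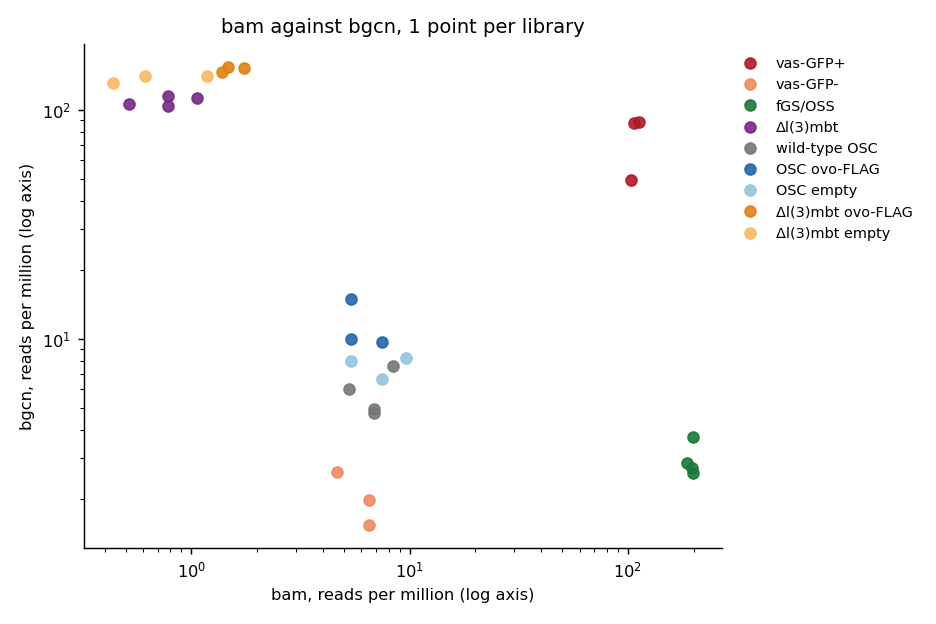
RPM of *bgcn* (y axis, log) against RPM of *bam* (x axis, log) in 30 libraries, coloured by condition. Only the *vas*-GFP+ libraries are high for both genes, the fGS/OSS libraries (lower right) are high for *bam* alone, and the Δ*l(3)mbt* libraries (upper left) are high for *bgcn* alone.

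*nos* was concentrated in sorted germ cells at 308 ± 31.3 RPM (SD, n = 3), and no other condition overlapped them. The next conditions were those with *ovo-FLAG*, at 35.8 ± 2.08 RPM in Δ*l(3)mbt* and 20.1 ± 2.00 RPM in wild-type OSCs (SD, n = 3 each). *Rbp9* was at 194 ± 24.0 RPM in *vas*-GFP+ cells (SD, n = 3) and between 3.25 and 14.2 RPM in the other 8 conditions. *mei-P26* was at 669 ± 74.7 RPM in *vas*-GFP+ cells (SD, n = 3), and the 7 cultured conditions ranged from 239 to 368 RPM, all above *vas*-GFP- cells at 144 RPM. *pum* was at 722 ± 15.6 RPM in *vas*-GFP+ and 439 ± 34.9 RPM in *vas*-GFP- cells (SD, n = 3 each), and the cultured conditions, from 331 to 256 RPM, each overlapped the next.

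Levels of different genes can be compared only per length of exon. In *vas*-GFP+ cells *nos* had 131 RPM per kb, followed by *pum* with 61.2, *bam* with 55.2, *mei-P26* with 28.8, *brat* with 28.4, *Rbp9* with 24.1 and *bgcn* with 18.1. In fGS/OSS *bam* was the most abundant of the 7 at 100.5 RPM per kb, whereas *bgcn* had 0.714 and *nos* 0.164. In untreated Δ*l(3)mbt* OSCs *brat* (37.6), *pum* (28.1) and *bgcn* (26.3 RPM per kb) were the most abundant, and *bam* had 0.403. These values use the sum of all annotated exons, so a gene that is transcribed from a short isoform appears lower than it is.

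The first comparison asked which regulators distinguish sorted germ cells from sorted somatic cells of the ovary. Of the 7 genes, 6 were higher in *vas*-GFP+ cells, where 16% of the 10481 genes tested were higher. None was lower by limma, edgeR or DESeq2, with 0 also at an unadjusted p under 0.05 (19.7% of all genes were lower by limma at an adjusted p under 0.05). Their median log2 fold change was 3.74, against -0.07 over all genes tested. *nos* had 1607, 1706 and 2003 normalized counts in *vas*-GFP+ cells, against 18.4, 19.6 and 17.0 in *vas*-GFP- cells. The groups were far apart, with a log2 fold change of 6.52 (SE 0.20, adjusted p = 5.0e-07).

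*Rbp9* had 956, 1135 and 1265 normalized counts in *vas*-GFP+ cells, against 28.0, 27.2 and 20.7 in *vas*-GFP- cells (log2 fold change 5.41, SE 0.23, adjusted p = 2.6e-06, limma). *bgcn* had 502, 506 and 289 normalized counts in *vas*-GFP+ cells, against 11.9, 15.3 and 20.7 in *vas*-GFP- cells (4.66, SE 0.37, adjusted p = 5.6e-05). The third germ cell library was the lowest for *bgcn* but still far above every somatic library. *bam* had 637, 617 and 601 normalized counts in *vas*-GFP+ cells, against 50.5, 50.2 and 36.8 in *vas*-GFP- cells (3.74, SE 0.22, adjusted p = 1.0e-05). *mei-P26*, well expressed on both sides of the sort, had 4168, 3942 and 3437 normalized counts in *vas*-GFP+ cells, against 1164, 1164 and 1036 in *vas*-GFP- cells (1.78, SE 0.10, adjusted p = 8.6e-06). With *nos* and *pum*, 6 of the 7 genes had libraries that did not overlap between the groups, as did 49.9% of all genes tested.

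The general repressors moved little. *pum* had 4028, 4120 and 4319 normalized counts in *vas*-GFP+ cells, against 3436, 3658 and 3186 in *vas*-GFP- cells, which did not overlap, with a log2 fold change of 0.28 (SE 0.07, adjusted p = 0.017). This call was lost without *vas*-GFP- library 1 (0.28) or library 3 (0.23), each with an adjusted p of 0.065. *brat* had 1832, 2408 and 2032 normalized counts in *vas*-GFP+ cells, against 2059, 2101 and 1827 in *vas*-GFP- cells, and the overlapping groups did not differ by the test (0.06, SE 0.11, adjusted p = 0.72, 95% interval -0.21 to 0.33). The scale matters for these genes, since RPM in place of normalized counts would add 0.44 to every log2 fold change of this comparison. The summed level of 6 germ cell markers (*vas*, *osk*, *otu*, *orb*, *aub*, *zpg*) was 18131 to 20034 normalized counts in *vas*-GFP+ cells and 337 to 392 in *vas*-GFP- cells, with all 6 higher by limma, and 5 follicle cell markers summed to 1323 to 2172 in *vas*-GFP+ cells and 18381 to 20479 in *vas*-GFP- cells, with all 5 lower. The *vas* locus carries the tag on which the cells were sorted, so its difference is no independent check of the sort. The part of residual germ cells in the *bam*, *nos* and *bgcn* reads of *vas*-GFP- cells was not tested.

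The comparison of fGS/OSS with wild-type OSCs asked what a mixed germline and somatic culture expresses beyond a somatic line. By the study's methods fGS/OSS was kept in partly conditioned medium and passaged before it was confluent. Line and culture condition therefore cannot be told apart in any difference of fGS/OSS. The gene that stood out was *bam*, with 2318, 2476, 2429 and 2416 normalized counts in fGS/OSS, against 99.4, 62.5, 81.3 and 82.9 in wild-type OSCs. These libraries were 29.6-fold apart in the mean, with a log2 fold change of 4.89 (SE 0.12, adjusted p = 1.9e-11). *bgcn* went the other way, with 35.4, 32.2, 33.6 and 45.0 normalized counts in fGS/OSS, against 90.2, 71.9, 56.0 and 59.6 in wild-type OSCs, and the groups did not overlap (-0.89, SE 0.21, adjusted p = 0.0026). In all, 4 of the 7 genes were higher (30.3% of 9533 genes tested) and 1 was lower (31.3%). Their median log2 fold change was 0.30, against -0.01 over all genes. The libraries did not overlap for 5 of the 7, and for 57.4% of all genes tested.

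The other differences were small or rested on few reads. *nos* had 3.83, 6.90, 1.98 and 6.28 normalized counts in fGS/OSS, against 1.02, 0, 0 and 0.864 in wild-type OSCs, which did not overlap and passed the test (log2 fold change 1.94, SE 0.51, adjusted p = 0.0056). These are 18 reads in fGS/OSS and 3 reads in wild-type OSCs, a ratio per counted read of 7.33 (exact 95% interval 2.14 to 38.8, counting error only). Only fGS/OSS, with a mean of 4.75 against 0.472 in wild-type OSCs, lifted *nos* over the filter on low values. The log2 fold change ranged from 0.81 to 3.04 over the alternatives that tested it, as it depends on the value added before the logarithm. *nos* counts among the 4 genes higher and the 5 without overlap on these few reads. *nos* was close to the limit of detection in a culture with abundant *bam*. *brat* had 5774, 5903, 5558 and 5315 normalized counts in fGS/OSS, against 3285, 4338, 4241 and 4760 in wild-type OSCs (0.45, SE 0.11, adjusted p = 0.0027). *mei-P26* had 3543, 3666, 3416 and 3301 normalized counts in fGS/OSS, against 2413, 2969, 2868 and 3130 in wild-type OSCs (0.30, SE 0.09, adjusted p = 0.010). Both were separated without overlap, and both differences held without wild-type OSC library 1, at 0.34 and 0.22.

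*pum* had 4208, 3915, 3645 and 3446 normalized counts in fGS/OSS, against 2564, 3370, 2962 and 4353 in wild-type OSCs, and the overlapping groups gave a log2 fold change of 0.22 (SE 0.14, adjusted p = 0.18). Wild-type OSC library 4 was the highest of the 8, and without it the difference was 0.36 and passed (adjusted p = 0.011). *Rbp9* had 117, 73.6, 96.9 and 99.4 normalized counts in fGS/OSS, against 111, 104, 112 and 134 in wild-type OSCs (-0.26, SE 0.16, adjusted p = 0.18, 95% interval -0.61 to 0.09).

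Set against its label, fGS/OSS carried an uneven set of germ cell markers. *vas*, the gene of a germline DEAD-box helicase, was at 530 ± 37.4 normalized counts in fGS/OSS and 12.8 ± 3.53 in wild-type OSCs (SD, n = 4 each), and *orb*, which encodes an oocyte CPEB protein, was at 46.7 ± 4.27 and 20.5 ± 4.35 in the same sequence. The other germ cell markers were low in both cultures. Over 4 libraries each, *aub* had 86 reads in fGS/OSS and 164 in wild-type OSCs, *osk* had 1 and 14, *otu* 1 and 4, and *zpg* 8 and 8 in the same sequence. Of the 3 germ cell markers with enough counts for the test, *vas* and *orb* were higher, and the sum of all 6, 551 to 634 normalized counts in fGS/OSS and 55.4 to 83.5 in wild-type OSCs, was nearly all *vas* in fGS/OSS. The 5 follicle cell markers summed to 19991 to 22909 in fGS/OSS and to 10777 to 13533 in wild-type OSCs, and they went both ways, 3 higher and 1 lower. *tj* was at 17155 ± 1060 normalized counts in fGS/OSS and 7116 ± 1073 in wild-type OSCs, and *br* at 285 ± 16.8 and 3018 ± 340.3 in the same sequence (SD, n = 4 each). Markers of niche and escort cells, the somatic neighbours of the stem cells, summed to 23482 to 24027 in fGS/OSS and to 10591 to 16116 in wild-type OSCs, with 3 of 4 higher, and *en* was at 0 in wild-type OSCs. The 5 haemocyte markers summed to 604 to 1548 normalized counts over the 9 conditions. *srp* was at 1036 ± 85.4 normalized counts in fGS/OSS and 375 ± 90.0 in wild-type OSCs and *Ppn* at 4.06 ± 3.26 and 768 ± 345 in the same sequence (SD, n = 4 each), while *NimC1* or *He* was at 0 in each condition.

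Loss of L(3)mbt, a chromatin protein that keeps germline genes silent in somatic cells, was examined against the same wild-type OSC libraries. Here *bgcn* was the gene that stood out, and *bam* fell. *bgcn* had 1483, 1445, 1293 and 1359 normalized counts in Δ*l(3)mbt* OSCs, against 90.2, 71.9, 56.0 and 59.6 in wild-type OSCs, which is 20.1-fold in the mean and 4.33 on the log2 scale (SE 0.14, adjusted p = 5.9e-11). *bam* had 10.1, 13.5, 9.71 and 6.61 normalized counts in Δ*l(3)mbt* OSCs, against 99.4, 62.5, 81.3 and 82.9 in wild-type OSCs, a log2 fold change of -2.93 (SE 0.27, adjusted p = 2.1e-06). Neither gene had overlapping groups. Of the 7 genes, 5 were higher in Δ*l(3)mbt* (19.4% of 9592 genes tested) and 1 was lower (17.2%). The median log2 fold change of the 7 was 0.57, against 0.02 over all genes, and 5 of the 7 had no overlap between the groups (36.2% of all genes tested).

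*nos* had 17.8, 14.6, 20.3 and 6.61 normalized counts in Δ*l(3)mbt* OSCs, against 1.02, 0, 0 and 0.864 in wild-type OSCs (log2 fold change 3.40, SE 0.51, adjusted p = 1.7e-04). This rests on 56 reads in Δ*l(3)mbt* OSCs and 3 reads in wild-type OSCs, a ratio per counted read of 23.6 (exact 95% interval 7.66 to 118). Here too only the higher group lifted *nos* over the filter, and the log2 fold change ranged from 1.80 to 4.65 over the alternatives that tested it. The groups were separate, but the level stayed low. *mei-P26* had 4346, 4178, 4280 and 4724 normalized counts in Δ*l(3)mbt* OSCs, against 2413, 2969, 2868 and 3130 in wild-type OSCs (0.63, SE 0.09, adjusted p = 1.5e-04). *brat* had 6622, 5663, 5630 and 6629 normalized counts in Δ*l(3)mbt* OSCs, against 3285, 4338, 4241 and 4760 in wild-type OSCs (0.57, SE 0.11, adjusted p = 0.0017). Both sets of libraries were again without overlap, and without wild-type OSC library 1 the differences were 0.55 and 0.46, with both calls kept.

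*pum* had 4487, 4020, 3856 and 4547 normalized counts in Δ*l(3)mbt* OSCs, against 2564, 3370, 2962 and 4353 in wild-type OSCs. The groups overlapped, and the log2 fold change of 0.38 (SE 0.14) passed narrowly, with an adjusted p of 0.047. The call was lost in 10 of 17 alternatives, with adjusted p up to 0.13. Those that lost it were both count models, quantile scaling, and leaving out wild-type OSC library 1 (0.26), 2 (0.39) or 3 (0.33) or any of Δ*l(3)mbt* libraries 1 to 4 (0.34 to 0.42). *Rbp9* had 108, 87.4, 182 and 130 normalized counts in Δ*l(3)mbt* OSCs, against 111, 104, 112 and 134 in wild-type OSCs, with no difference beyond the spread (0.09, SE 0.20, adjusted p = 0.75, 95% interval -0.34 to 0.53). Beside these results, 5 neuronal markers summed to 2603 to 2966 normalized counts in Δ*l(3)mbt* and 599 to 908 in wild-type OSCs. Of these 5 only *elav* passed the limma test in Δ*l(3)mbt*, and it made up most of the sum, with 2759 ± 193 normalized counts in Δ*l(3)mbt* and 704 ± 130 in wild-type OSCs (SD, n = 4 each). The 5 muscle markers summed to 112 to 145 in Δ*l(3)mbt* and 5288 to 7096 in wild-type OSCs, mostly through *Act57B* (34.8 ± 8.26 in Δ*l(3)mbt* and 5663 ± 879 in wild-type OSCs, SD, n = 4 each), and of 4 tested 1 was higher and 2 were lower. *srp* and *Ppn*, the haemocyte markers named above, were at 853 ± 90.8 and 67.8 ± 17.8 normalized counts in Δ*l(3)mbt* (SD, n = 4). Their part in the differences of the regulators was not tested.

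The closest neighbours of *bgcn* were examined because its gene lies in a dense stretch. *gbb*, a BMP ligand gene that ends 23 bp beyond *bgcn* on the opposite strand, had a log2 fold change of -0.27 in Δ*l(3)mbt* OSCs (SE 0.08, adjusted p = 0.015). *TBPH*, which lies 146 bp upstream on the same strand, had 0.07 (SE 0.07, adjusted p = 0.47), and *Pym*, which overlaps the *bgcn* locus without sharing exons, had -0.10 (SE 0.11, adjusted p = 0.50). None of these 3 neighbours rose with *bgcn*. *RpS27*, 846 bp upstream of *bam* on its strand, had a log2 fold change of -0.68 in fGS/OSS (SE 0.09, adjusted p = 5.3e-05), where *bam* was 4.89 higher.

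Since fGS/OSS and Δ*l(3)mbt* shared the wild-type libraries as their control, they were also compared with each other. *bam* was 241-fold higher in fGS/OSS in the mean, with 2410 ± 66.3 normalized counts in fGS/OSS and 10.0 ± 2.83 in Δ*l(3)mbt* OSCs (SD, n = 4 each), or 7.81 on the log2 scale (SE 0.15, adjusted p = 1.0e-16). *bgcn* was at 36.6 ± 5.78 normalized counts in fGS/OSS and 1395 ± 85.8 in Δ*l(3)mbt* OSCs (-5.23, SE 0.11, adjusted p = 1.9e-16). The partners were opposite in these lines. Of the 7 genes, 1 was higher in fGS/OSS (34.4% of 9620 genes tested) and 4 were lower (36.3%), with a median log2 fold change of -0.33 against -0.03 over all genes. Groups without overlap were found for 3 of the 7 and for 64.2% of all genes tested.

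Among the others, *nos* was lower in fGS/OSS (log2 fold change -1.46, SE 0.43, adjusted p = 0.0067), with 1 Δ*l(3)mbt* library, at 6.61 normalized counts, inside the range of fGS/OSS. *mei-P26* was lower without overlap (-0.33, SE 0.05, adjusted p = 1.8e-05). *pum* was slightly lower in overlapping groups (-0.15, SE 0.07, adjusted p = 0.049), a call that 8 of 17 alternatives did not keep. It was lost without Δ*l(3)mbt* library 1 (-0.12) or 4 (-0.12) and without fGS/OSS library 2 (-0.17), 3 (-0.13) or 4 (-0.11). *brat* (-0.12, SE 0.06, adjusted p = 0.090) and *Rbp9* (-0.35, SE 0.20, adjusted p = 0.13) did not pass. Both passed without Δ*l(3)mbt* library 2 (-0.16 for *brat* and -0.51 for *Rbp9*), and *brat* also without library 3 (-0.16).

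Ectopic Ovo in OSCs tested whether a single germline transcription factor alters these genes within 48 h. The largest difference among the 7 was that of *nos*. It had 131, 111 and 112 normalized counts with *ovo-FLAG*, against 0, 0.475 and 0.559 with the empty vector. The *ovo-FLAG* libraries held 224 *nos* reads and the empty vector libraries 2, a ratio per counted read of 311 (exact 95% interval 85.1 to 2584), and the log2 fold change was 6.49 (SE 0.34, adjusted p = 7.9e-11). Only the *ovo-FLAG* libraries lifted *nos* over the filter on low values. The size of such a fold depends on the value added before the logarithm, and it ranged from 4.53 to 8.26 over the alternatives, with the call kept in each. Of the 7 genes, 2 were higher (13.2% of 9025 genes tested) and none was lower by limma, edgeR or DESeq2, also at an unadjusted p under 0.05. Of all genes 10.3% were lower by limma at an adjusted p under 0.05. The median log2 fold change of the 7 was 0.19 against -0.01 over all genes. Of the 7, 2 had groups without overlap (37.4% of all genes tested).

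*bam* had 31.6, 44.1 and 32.1 normalized counts with *ovo-FLAG*, against 32.1, 57.5 and 45.3 with the empty vector, and the overlapping groups gave -0.29 (SE 0.23, adjusted p = 0.41, 95% interval -0.79 to 0.20). *bgcn* had 87.0, 57.0 and 59.6 normalized counts with *ovo-FLAG*, against 47.8, 48.9 and 40.2 with the empty vector. Its groups did not overlap, yet the log2 fold change of 0.54 (SE 0.19) fell just short of the threshold (adjusted p = 0.051). It passed in 5 of 14 alternatives, among them without *ovo-FLAG* library 2 (0.65, adjusted p = 0.023). *brat* had 1803, 1525 and 1710 normalized counts with *ovo-FLAG*, against 1625, 1346 and 1387 with the empty vector (0.21, SE 0.07, adjusted p = 0.049). These groups overlapped, and 6 of 14 alternatives lost the call, including leaving out empty vector library 2 (0.16) or 3 (0.18) or *ovo-FLAG* library 1 (0.16) or 3 (0.20). *mei-P26* (0.08, SE 0.08, adjusted p = 0.53), *Rbp9* (0.19, SE 0.18, adjusted p = 0.50) and *pum* (-0.09, SE 0.06, adjusted p = 0.36) did not pass.

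The Δ*l(3)mbt* line has *ovo* RNA before any plasmid is added, and *nos* was again higher with *ovo-FLAG* there. *nos* had 218, 201 and 222 normalized counts with *ovo-FLAG*, against 5.96, 6.91 and 11.4 with the empty vector, a 26.4-fold difference of means and 4.61 on the log2 scale (SE 0.23, adjusted p = 2.4e-11). *mei-P26* had 2209, 2161 and 2224 normalized counts with *ovo-FLAG*, against 1877, 1840 and 1916 with the empty vector (0.23, SE 0.04, adjusted p = 2.2e-04). Both genes were separated without overlap. *Rbp9* had 86.7, 82.4 and 85.2 normalized counts with *ovo-FLAG*, against 39.5, 52.0 and 71.9 with the empty vector (0.67, SE 0.19, adjusted p = 0.012). Its groups did not overlap either, but the call was lost without empty vector library 1 (0.46, adjusted p = 0.071) or *ovo-FLAG* library 1 (0.65, adjusted p = 0.056). In all, 3 of the 7 genes were higher (16.2% of 9290 genes tested) and none was lower by limma, edgeR or DESeq2, also at an unadjusted p under 0.05. Of all genes 14.2% were lower by limma at an adjusted p under 0.05. The median log2 fold change of the 7 was 0.23 against 0.03 over all genes. Libraries were without overlap for 5 of the 7 genes and for 44.7% of all genes tested.

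*bgcn*, already high in this line, had 910, 875 and 906 normalized counts with *ovo-FLAG*, against 810, 863 and 863 with the empty vector (0.09, SE 0.05, adjusted p = 0.22). *bam* stayed near the limit of detection, with 10.5, 8.24 and 8.67 normalized counts with *ovo-FLAG*, against 2.71, 7.27 and 3.79 with the empty vector (0.94, SE 0.48, adjusted p = 0.15), or 34 reads over the *ovo-FLAG* libraries and 26 over those of the empty vector. Its groups did not overlap, but at these counts a difference could not be told from the spread. *brat* (0.09, SE 0.05, adjusted p = 0.15) and *pum* (-0.03, SE 0.05, adjusted p = 0.71) did not pass. *brat* did so in 3 of 14 alternatives, with edgeR, with quantile scaling, and without empty vector library 3, the shallowest library (0.12, adjusted p = 0.039). Without that library *nos* was at 4.85 and *Rbp9* at 0.89.

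**Figure D3:**
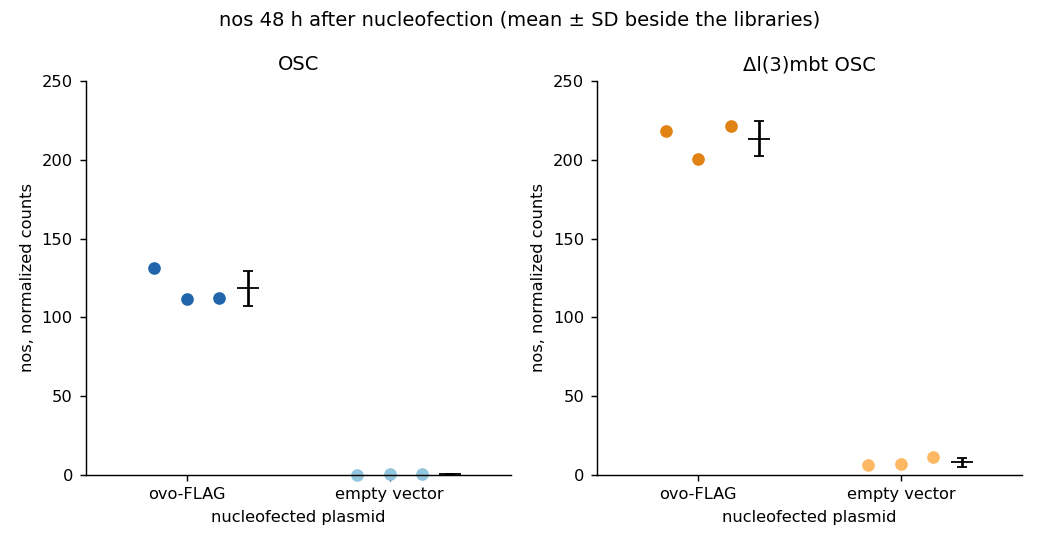
Normalized counts of *nos* (y axis, from 0) in OSCs (left panel) and Δ*l(3)mbt* OSCs (right panel) 48 h after nucleofection with *ovo-FLAG* or the empty vector, 1 point per library with mean and SD beside them. With *ovo-FLAG* the libraries lie between 111 and 131 in OSCs and between 201 and 222 in Δ*l(3)mbt* OSCs, far above the empty vector in both, and the 2 tables were normalized apart.

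On the log2 scale the effect of *ovo-FLAG* on *nos* was smaller in the Δ*l(3)mbt* line than in its wild-type counterpart (log2 difference of the effects -1.89, SE 0.40, adjusted p = 0.0025, limma). *nos* was the one gene of the 7 to pass (9.64% of 8706 genes tested passed in either direction). The starting levels were unequal, 8.08 ± 2.88 normalized counts in Δ*l(3)mbt* and 0.345 ± 0.301 in OSCs with the empty vector (SD, n = 3 each). With 5 added before the logarithm the difference of the effects was -0.44 and did not pass (adjusted p = 0.37, limma). In RPM the direction was opposite, with a larger rise in Δ*l(3)mbt* OSCs (from 1.31 to 35.8) than in OSCs (from 0.0573 to 20.1). The step in *ovo* RNA was also unequal, at 5.97 in OSCs and 1.33 in Δ*l(3)mbt* OSCs (log2 difference -4.64, SE 0.16, adjusted p = 3.6e-16, limma). Its part in the *nos* difference was not tested. For *bam* (1.23, SE 0.48, adjusted p = 0.12) and *bgcn* (-0.46, SE 0.17, adjusted p = 0.10) the difference did not pass. It did for *bam* without Δ*l(3)mbt* empty vector library 2 (1.55, adjusted p = 0.043) and for *bgcn* without OSC *ovo-FLAG* library 2 (-0.57, adjusted p = 0.028). Of the germ cell markers 5 of 5 tested were higher with *ovo-FLAG* in OSCs and 5 of 6 in Δ*l(3)mbt* OSCs. Their sum was 412 to 511 normalized counts with *ovo-FLAG* and 28.5 to 41.3 with the empty vector in OSCs, where *zpg* had no read with the empty vector, and 2008 to 2117 with *ovo-FLAG* and 1048 to 1193 with the empty vector in Δ*l(3)mbt* OSCs.

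**Figure D4:**
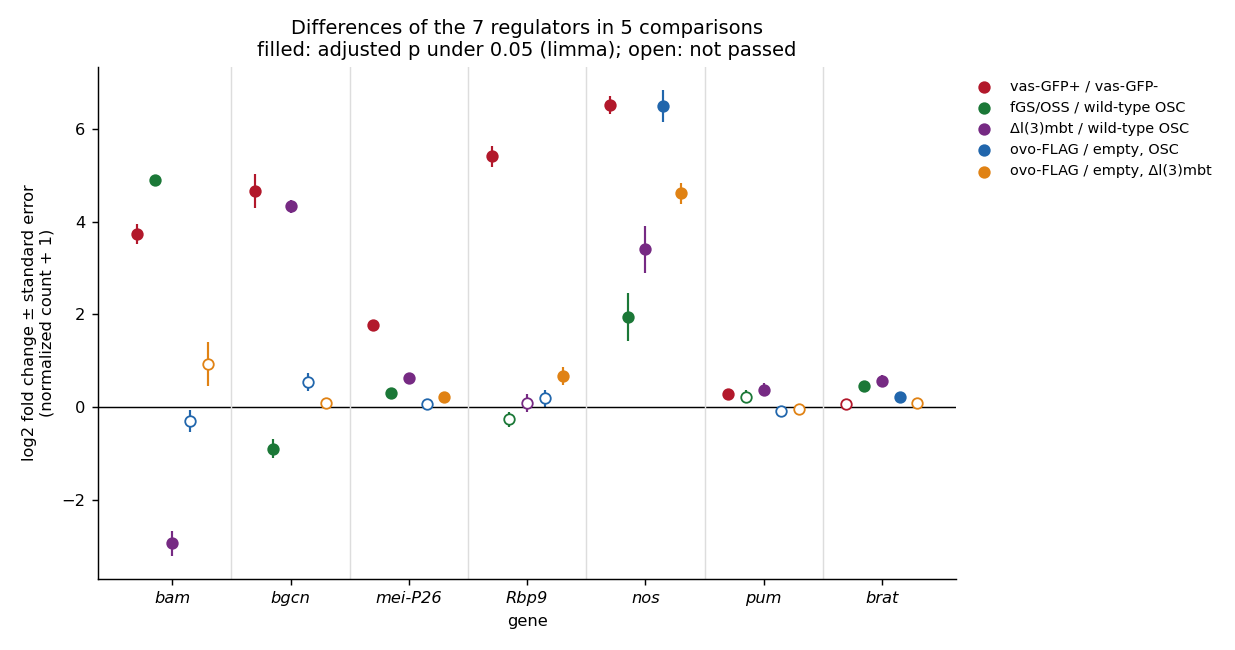
Log2 fold change ± standard error (y axis) of the 7 genes (x axis) in 5 comparisons (colours), filled where the adjusted p of limma is under 0.05 and open where it is not. *nos* lies above 0 and is filled in every comparison, from 1.94 to 6.52, *bam* spans -2.93 to 4.89, and *pum* and *brat* stay between -0.09 and 0.57. Against wild-type OSCs, untreated or with the empty vector, the reference held few *nos* reads, and the size of the fold depends on the value added before the logarithm.

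The proteins with which Bam and Bgcn act, and others needed for cyst differentiation, form a list of 11 genes. Counts in this and the next lists are to be read against the shares of all genes tested, which were 16% higher and 19.7% lower in sorted cells, 30.3% and 31.3% in fGS/OSS, 19.4% and 17.2% in Δ*l(3)mbt*, 13.2% and 10.3% with *ovo-FLAG* in OSCs, and 16.2% and 14.2% in Δ*l(3)mbt* OSCs. The medians of all genes lay between -0.07 and 0.03 on the log2 scale. In *vas*-GFP+ against *vas*-GFP- cells 6 were higher and 2 lower of 11 tested. *otu*, which encodes a deubiquitinase that acts with Bam, was at 1980 ± 147 normalized counts in *vas*-GFP+ and 36.3 ± 1.32 in *vas*-GFP- cells (SD, n = 3 each), and *hts*, an adducin of the fusome, at 5425 ± 186 and 1964 ± 29.8 in the same sequence. In fGS/OSS against wild-type OSCs 5 were higher and 2 lower of 10 tested. The gene with the smallest p was *tut*, known from the testis as a partner of Bam and Bgcn. It had 124, 109, 113 and 133 normalized counts in fGS/OSS, against 5.63, 1.18, 1.06 and 5.18 in wild-type OSCs (log2 fold change 5.03, SE 0.40, adjusted p = 5.2e-07). In Δ*l(3)mbt* OSCs *tut* had 4 reads in all, and against them it was 6.05 higher in fGS/OSS (SE 0.41, adjusted p = 9.6e-10). *CSN4*, a COP9 signalosome subunit that binds Bam, was also higher in fGS/OSS than in wild-type OSCs (0.64, SE 0.06, adjusted p = 2.9e-06).

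In Δ*l(3)mbt* against wild-type OSCs 1 gene of this list was higher and 3 were lower of 10 tested, and the smallest p were those of *hts* (-0.37, adjusted p = 0.0021) and *CSN5*, another signalosome subunit (-0.33, adjusted p = 0.0027). With *ovo-FLAG* in OSCs 4 of 10 tested were lower. *hts* (-0.19, SE 0.06, adjusted p = 0.018) and *CycA*, a mitotic cyclin (-0.19, SE 0.06, adjusted p = 0.015), had the smallest p. With *ovo-FLAG* in Δ*l(3)mbt* OSCs 3 were higher and 2 lower of 11 tested, and *hts* was among those higher (0.28, SE 0.04, adjusted p = 1.2e-05). The median log2 fold change of the list was 1.36 in sorted cells and between -0.10 and 0.18 in the other 4 comparisons. The *hts* effects differed between the lines (log2 difference 0.47, SE 0.07, adjusted p = 2.7e-05).

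The deadenylase subunits and other cofactors through which Nos, Pum and Brat repress mRNA were broadly expressed. Of 11 such genes 10 were tested in each comparison. In sorted cells 2 were higher in *vas*-GFP+ cells, namely *Rcd-1* (0.79, SE 0.12, adjusted p = 0.0015) and the deadenylase gene *twin* (0.42, SE 0.10, adjusted p = 0.013). In fGS/OSS 2 were higher and 3 lower than in wild-type OSCs, and in Δ*l(3)mbt* 4 were higher and 1 lower, with *twin* at 0.46 (SE 0.08, adjusted p = 6.4e-04). With *ovo-FLAG* 2 were higher and 1 was lower in each line. Their median log2 fold change stayed between -0.04 and 0.28 in these 5 comparisons.

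Known targets of the repressors number 7 in the list, of which *CycB*, *hid* and *Myc* had the smallest p in most comparisons. *CycB*, a mitotic cyclin mRNA repressed by Nos and Pum in pole cells, was higher in *vas*-GFP+ cells (7289 ± 1285 normalized counts, against 807 ± 68.2 in *vas*-GFP- cells, SD, n = 3 each, log2 fold change 3.16, adjusted p = 3.0e-06). *Myc*, repressed by Brat in neural and ovarian stem cell lineages, was lower (-1.54, SE 0.08, adjusted p = 7.3e-06). *hid*, a cell death gene repressed by Nos and Pum in pole cells, was at 2393 ± 82.6 normalized counts in fGS/OSS and 46.5 ± 10.3 in wild-type OSCs (SD, n = 4 each, 5.68, adjusted p = 1.9e-11). It was also higher in Δ*l(3)mbt* than in wild-type OSCs (1.54, SE 0.19, adjusted p = 3.7e-05) and with *ovo-FLAG* in OSCs (1.02, SE 0.25, adjusted p = 0.0052). Over the list, 4 were higher and 2 lower of 7 tested in sorted cells, 1 higher and 2 lower of 6 in fGS/OSS, 3 of 6 higher in Δ*l(3)mbt*, 2 of 6 higher with *ovo-FLAG* in OSCs, and 2 higher and 1 lower of 6 with *ovo-FLAG* in Δ*l(3)mbt* OSCs. The median log2 fold change of these targets was 0.53 in sorted cells and between -0.07 and 0.29 in the rest. *Mad*, *Med* and *shn*, which are among these targets, also belong to the BMP list.

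BMP signalling, which keeps *bam* off in the stem cell, was covered by 12 genes, all tested throughout. In sorted cells 3 were higher and 6 lower in *vas*-GFP+ cells, led by *dally*, a glypican that retains the ligand (-4.20, SE 0.27, adjusted p = 1.9e-05). In fGS/OSS 5 were higher and 3 lower than in wild-type OSCs, with *dally* at 2.28 (SE 0.11, adjusted p = 7.9e-09) and the receptor gene *tkv* at 1.17 (SE 0.09, adjusted p = 5.6e-07). In Δ*l(3)mbt* 3 were higher and 2 lower, with the ligand gene *dpp* at 222 ± 22.1 normalized counts in Δ*l(3)mbt* and 22.3 ± 6.77 in wild-type OSCs (SD, n = 4 each, 3.30, adjusted p = 8.4e-08) and *tkv* at -0.84 (SE 0.10, adjusted p = 2.4e-05). *dpp* was also higher with *ovo-FLAG*, at 197 ± 25.3 against 32.1 ± 7.43 normalized counts with the empty vector in OSCs (2.60, adjusted p = 1.9e-09) and at 258 ± 18.1 against 90.4 ± 5.16 in Δ*l(3)mbt* OSCs (adjusted p = 3.9e-09). Over the list 2 were higher and 1 was lower with *ovo-FLAG* in OSCs, and 1 was higher and 6 were lower in Δ*l(3)mbt* OSCs. The median was -0.36 in sorted cells and between -0.15 and 0.02 in the rest.

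Other factors that maintain germline stem cells gave 4 higher and 3 lower of 10 tested in sorted cells, 5 higher and 1 lower of 9 in fGS/OSS, and 2 of 10 higher in Δ*l(3)mbt*, where *vas* was at 6.42 (SE 0.18, adjusted p = 2.1e-11). With *ovo-FLAG* 2 of 10 were higher and 2 were lower in each line. The 2 of 10 higher in Δ*l(3)mbt* are close to the share over all genes, and the median log2 fold change of the list was 0.44 in sorted cells and between -0.10 and 0.25 in the rest. Among 4 relatives of the TRIM-NHL and ELAV members, the neuronal gene *elav* was higher in Δ*l(3)mbt* than in wild-type OSCs (1.98, SE 0.11, adjusted p = 2.3e-08), and *wech*, a TRIM-NHL gene, was higher with *ovo-FLAG* in OSCs (0.20, adjusted p = 0.025) and in Δ*l(3)mbt* OSCs (0.32, adjusted p = 7.3e-06). In sorted cells 1 of 3 such relatives tested was lower, in fGS/OSS 1 of 2 was lower, and in Δ*l(3)mbt* OSCs 1 of 3 was higher.

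Genes with the most similar pattern were sought by Pearson's r of log2(normalized count + 1), centred on the mean of each table, over the 30 libraries among 8209 genes. This is a description in which libraries of 1 condition and of 1 library type are not independent points. Most like *bgcn* were *cona* (r = 0.98), which encodes a synaptonemal complex protein, and *CG13741* (0.97). *bam* was most like *out* (0.95) and *CG10914* (0.95), and *nos* most like *aub* (0.95), which encodes a germline Piwi protein, and *CG7208* (0.94). *Rbp9* was most like *Sep4* (0.98) and *krimp* (0.97), *mei-P26* like *mub* (0.97) and *Oseg2* (0.96), *pum* like *ctrip* (0.86) and *osa* (0.86), and *brat* like *foi* (0.84) and *msn* (0.84). Within the 7, the closest pairs were *mei-P26* with *Rbp9* (0.90) and *pum* with *brat* (0.73), and *bam* had no closer partner than *Rbp9* (0.30).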

How the data were processed

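Reads were trimmed by the authors with cutadapt (1.18), aligned with STAR (2.7.3a) and counted by strand with featureCounts (Subread 1.5.3). The deposited signal consists of counts scaled by DESeq2 (1.30.1) size factors, in 4 tables normalized apart. All values were whole multiples of a common step (tolerance 0.01), so reads were recovered. The 5 deposited tables of fold changes hold the authors' own comparisons and were not used.

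Each comparison within a table was tested with limma (3.58.1, R 4.3.3, trend and robust variance) on log2(normalized count + 1), with no block, keeping genes that averaged 2 or more, with adjusted p taken over all genes tested. Differences of *ovo-FLAG* effects were fitted over 4 groups. Alternatives were edgeR (4.0.16) and DESeq2 (1.42.0) on recovered reads, quantile scaling, pseudocounts of 0.5 and 5, no filter, a minimum mean of 10, a replicate block, the thresholds of the study, all 3 untreated lines in 1 fit, and leaving out each library. The thresholds stated for Δ*l(3)mbt* were carried over to the comparisons with fGS/OSS, for which the study states none. Those for *ovo-FLAG* in OSCs were carried over to Δ*l(3)mbt* OSCs. The limma test was checked on simulated counts. Exact intervals for ratios of reads (95%) cover counting error only.

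The members, gene lists and alternatives were chosen with earlier results of these data known. All 7 members are named throughout, from each list mainly the 2 genes with the smallest p among those passing, and for likeness the 2 highest r.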

Additional observations from a re-analysis of the deposited data

Results flagged for a closer look

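The effect of *ovo-FLAG* on *nos* differed between the lines by the test of the difference itself, with a log2 difference of -1.89 for Δ*l(3)mbt* minus wild-type OSCs (SE 0.40, adjusted p = 0.0025 from limma). With 5 added before the logarithm this difference was -0.44 and did not pass (adjusted p = 0.37, limma). In RPM the rise of *nos* was larger in Δ*l(3)mbt* OSCs (from 1.31 to 35.8) than in OSCs (from 0.0573 to 20.1). All 3 libraries with *ovo-FLAG* were above all 3 with the empty vector in each line. On the log2 scale the rise of *ovo* RNA itself was also smaller in Δ*l(3)mbt* OSCs (log2 difference -4.64), and its part was not tested. Among 21 groups of 4 libraries, 7 genes in 3 conditions, no library lay far from the other 3 by Dixon's test.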

How the results depend on the processing

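Of the 7 genes, limma called the numbers given in the report, and no direction of a called value reversed under any alternative run. With the fold change and p thresholds of the study the number higher was 3 in Δ*l(3)mbt* and 1 with *ovo-FLAG* in OSCs. *pum* in sorted cells (log2 fold change 0.28) also lost its call. So did *mei-P26* with *ovo-FLAG* in Δ*l(3)mbt* OSCs (0.23) under the thresholds carried over. With the thresholds carried over to fGS/OSS, 2 were higher than in wild-type OSCs and 2 were lower than in Δ*l(3)mbt*. With *ovo-FLAG* in OSCs 1 gene (*nos*) was higher with a pseudocount of 0.5 or with no filter, and 1 to 3 when a library was left out. By edgeR the number higher was 3 there, 4 with *ovo-FLAG* in Δ*l(3)mbt* OSCs and 4 in Δ*l(3)mbt*. By the same model 3 were lower in fGS/OSS than in Δ*l(3)mbt*. The number whose *ovo-FLAG* effect differed between lines was 0 with a pseudocount of 5 and 1 to 2 when a library was left out. When a library was left out the number higher was 5 to 6 in sorted cells, 3 to 5 in fGS/OSS, 4 to 5 in Δ*l(3)mbt* and 2 to 4 with *ovo-FLAG* in Δ*l(3)mbt* OSCs, and 3 to 6 were lower in fGS/OSS than in Δ*l(3)mbt*. *nos* fell below the filter on low values in 2 of the alternatives for fGS/OSS and was not tested there.

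Libraries of different groups share replicate numbers in the labels, but their deviations from the group means correlated between -0.07 and 0.12 over 21 pairs, so the numbers were not taken as pairs. A library correlated best with its own number in 19 of 42 checks, and in 6 of 6 for *ovo-FLAG* and the empty vector in OSCs. With the replicate number as a block the count of genes whose *ovo-FLAG* effect differed between lines was 2, with *bgcn* at -0.46 (adjusted p = 0.05), and *bgcn* passed with *ovo-FLAG* in OSCs (0.54, adjusted p = 0.024). The block changed no other call among the 7.

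Over all genes the thresholds of the study, or those carried over from it, gave 738 higher and 837 lower in sorted cells (1673 and 2065 at an adjusted p under 0.05 alone), 1714 and 1746 in fGS/OSS (2888 and 2982), 1082 and 759 in Δ*l(3)mbt* (1864 and 1646), 1804 and 2100 in fGS/OSS against Δ*l(3)mbt* (3306 and 3493), 792 and 106 with *ovo-FLAG* in OSCs (1194 and 928), and 876 and 235 in Δ*l(3)mbt* OSCs (1509 and 1323). Without any 1 of the *vas*-GFP- libraries 1215 to 1229 genes were lower in sorted cells. Without empty vector library 2 or 3 in OSCs 564 or 584 were lower, and without *ovo-FLAG* library 3 in Δ*l(3)mbt* 191 had a larger effect in that line (301 with all libraries). Depth limits *nos* in untreated cultures and *bam* in Δ*l(3)mbt* OSCs, where a group held from 3 to 56 reads.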
